A study of Rattus norvegicus with 46 samples.

Results

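Integrins and laminins form the bond between a cell and the sheet of matrix around it. The genes described here are the 24 whose array symbol is that of an integrin alpha or beta subunit (Itga or Itgb with a number or 1 letter, leaving out Itga7) or of a laminin chain (Lama, Lamb or Lamc with a number), out of 14317 genes with a probe set of 1 symbol. They are 17 integrin subunits and 7 laminin chains, each read by 1 probe set. Of these, 15 rose above the median of their own array on at least 4 of the 46 arrays and were tested among 9289 genes. The 9 others are given by level only.

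The arrays came from the proximal gastrocnemius, a calf muscle, of 23 female Sprague-Dawley rats in a model of intensive care. All rats were under isoflurane, paralysed with the neuromuscular blocker alpha-cobrotoxin and mechanically ventilated, for 6 h to 4 d (13 rats), 5 to 8 d (4 rats) or 9 to 14 d (6 rats). A lever arm moved the left ankle of each rat passively through flexion and extension, 13.3 cycles per minute (12 h per day, or 6 h in all in the shortest experiments), and the opposite leg served as the unloaded one. The labels give the window of a rat and not its exact duration or age, no rat was left without anaesthesia and blockade, and so the 6 groups (3 windows by 2 legs) all share that treatment and the 6 h to 4 d legs serve as the reference. Values are log2 signals after robust multi-array averaging (RMA), and each rat carries its unloaded leg's number as its name.

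Laminins are secreted trimers of an alpha, a beta and a gamma chain that polymerise into basement membranes, the sheets that wrap each muscle fibre, capillary and nerve. Integrins are membrane dimers of an alpha and a beta subunit, and the alpha subunit largely sets the ligand: some pairs hold laminin, others collagen, fibronectin or cell surface proteins. Leukocytes carry a set of their own, built on the beta2 chain, with which they leave vessels and enter tissue.

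To show where the members' transcripts start, the region from 250 bases before to 50 bases after the gene start is given for 3 of the 10 tested members found in the RefSeq promoter table (build GRCr8). They are Lama5, with the largest rise, Itga1, which fell, and Itgam, a leukocyte subunit. Their positions are chr3:187695925-187696224 on the minus strand for Lama5, chr2:48545234-48545533 on the minus strand for Itga1 and chr1:192089342-192089641 on the plus strand for Itgam. Each is written 5′ to 3′ on its gene's strand. Capitals mark GGGCGG (a GC box) and CANNTG (an E-box) on either strand in Lama5 and Itga1, and GAGGAA (the core of PU.1 sites) on either strand in Itgam.
Lama5: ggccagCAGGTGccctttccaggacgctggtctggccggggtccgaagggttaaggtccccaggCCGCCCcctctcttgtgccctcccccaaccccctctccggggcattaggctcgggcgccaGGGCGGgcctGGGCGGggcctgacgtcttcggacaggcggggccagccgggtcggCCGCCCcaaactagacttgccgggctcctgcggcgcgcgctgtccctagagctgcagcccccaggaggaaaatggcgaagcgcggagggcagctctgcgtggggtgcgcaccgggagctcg
Itga1: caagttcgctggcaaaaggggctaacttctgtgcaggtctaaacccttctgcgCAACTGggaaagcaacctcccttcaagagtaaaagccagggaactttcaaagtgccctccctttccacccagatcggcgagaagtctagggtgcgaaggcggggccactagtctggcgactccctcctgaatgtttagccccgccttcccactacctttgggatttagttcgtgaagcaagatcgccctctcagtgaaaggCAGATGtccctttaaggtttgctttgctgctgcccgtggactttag
Itgam: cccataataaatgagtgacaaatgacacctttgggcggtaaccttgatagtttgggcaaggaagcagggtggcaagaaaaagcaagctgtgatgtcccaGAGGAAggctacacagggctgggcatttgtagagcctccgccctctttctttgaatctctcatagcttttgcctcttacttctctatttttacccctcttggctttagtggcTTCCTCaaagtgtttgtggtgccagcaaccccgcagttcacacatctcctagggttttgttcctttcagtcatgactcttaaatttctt
The Lama5 region held 4 GC boxes, at −186, −126, −116 and −71 from the gene start, and 1 E-box at −244. The Itga1 region held no GC box and 2 E-boxes, at −197 and 5. The Itgam region held GAGGAA on the plus strand at −151 and on the minus strand at −39, and no matches overlapped. Matches left unmarked were GC boxes at −218 and −114 and E-boxes at −232 and −128 in Itgam, and GAGGAA at −7 in Lama5. Among all 33469 regions of this length in the table, 33.1% held a GC box, 72.1% an E-box and 27.6% GAGGAA, and of the 10 members with a region 6, 7 and 7 did. These matches describe the letters and do not show binding.

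The fibre identity of the samples was clear on every array. The actin Acta1 lay between 13.69 and 14.33 and the creatine kinase Ckm between 13.50 and 14.02, while array medians ran from 6.07 to 6.20. The slow myosin Myh7 ranged from 5.71 to 13.12 and the fast oxidative myosin Myh2 from 5.40 to 12.98. Rats 35 and 37 of the first window had low means over 9 fibre markers, 12.07 and 12.61 in the unloaded legs against a group median of 13.58. The gap lay mainly in Myh2 (5.40 and 8.26) and Myh7 (6.30 and 8.57). Myh4 (13.86 and 13.88) and Tnnt3 (13.91 and 13.88) were above their 46-array medians of 13.59 and 13.74. Myh1 (13.20 and 13.11) was below its median of 13.41. In the loaded legs the mean was low in rat 35 (12.28) and not in rat 37 (13.40), where the group median was 13.26. The loaded legs of rats 17 (12.63) and 33 (12.74) were low too. Legs were paired within a rat by consecutive leg numbers, and the legs of 21 of 23 rats deviated from their group means together (r over 0.1, median 0.60), the exceptions being rats 17 and 27. The labels also carry a numeric code of 5 values. 1 of them, the third, holds 10 rats of all 3 windows, and values within it are given beside the results they change. Codes 1, 2 and 4 hold only rats of 6 h to 4 d, and code 5 only rats of the later windows. Differences from 6 h to 4 d can thus be told apart from the code only through the third code. Its meaning is not stated.

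Across time, the members moved in few but opposite ways: the laminin alpha5 chain and, in some rats of the last window, the leukocyte integrins Itgal and Itgb2 were higher, and the laminin beta2 chain and the collagen receptor subunit Itga1 were lower. Itgam was called in unloaded legs alone. Without rats 49, 51 and 59 only the loaded Itgal call of the leukocyte subunits remained. These rats were chosen after seeing their high macrophage markers, so smaller leukocyte differences follow in part from that choice. In unloaded legs at 9 to 14 d against 6 h to 4 d, 4 of 15 members were higher and 2 lower at an adjusted p under 0.05 (limma, Benjamini-Hochberg over all genes tested), where 45.6% of all genes were called, 28.7% higher and 16.9% lower. In loaded legs 4 were higher and 2 lower, where 44.2% of all genes were called, 29% higher and 15.2% lower. The members' share, 40.0% in each leg, was thus near that of all genes. The median difference of the 15 was 0.12 in unloaded and 0.16 in loaded legs, beside 0.07 and 0.08 over all genes.

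At 5 to 8 d against 6 h to 4 d, 4 members were called in unloaded legs (2 higher and 2 lower, where 35.9% of all genes were called, 23.6% higher and 12.3% lower). In loaded legs 2 were called (1 higher and 1 lower, where 39.0% were called, 26.9% higher and 12.0% lower). The last against the middle window gave no member in unloaded legs, where 0.226% of all genes were called, and 4 members had an unadjusted p under 0.05, as did 15.6% of all genes. In loaded legs it gave 1 member, higher, where 0.226% of all genes were called, 0.161% higher and 0.0646% lower. Both comparisons with the first window share its legs and are not independent of each other. In whole muscle RNA, fewer cells of a type and less RNA per cell cannot be told apart.

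**Figure D1:**
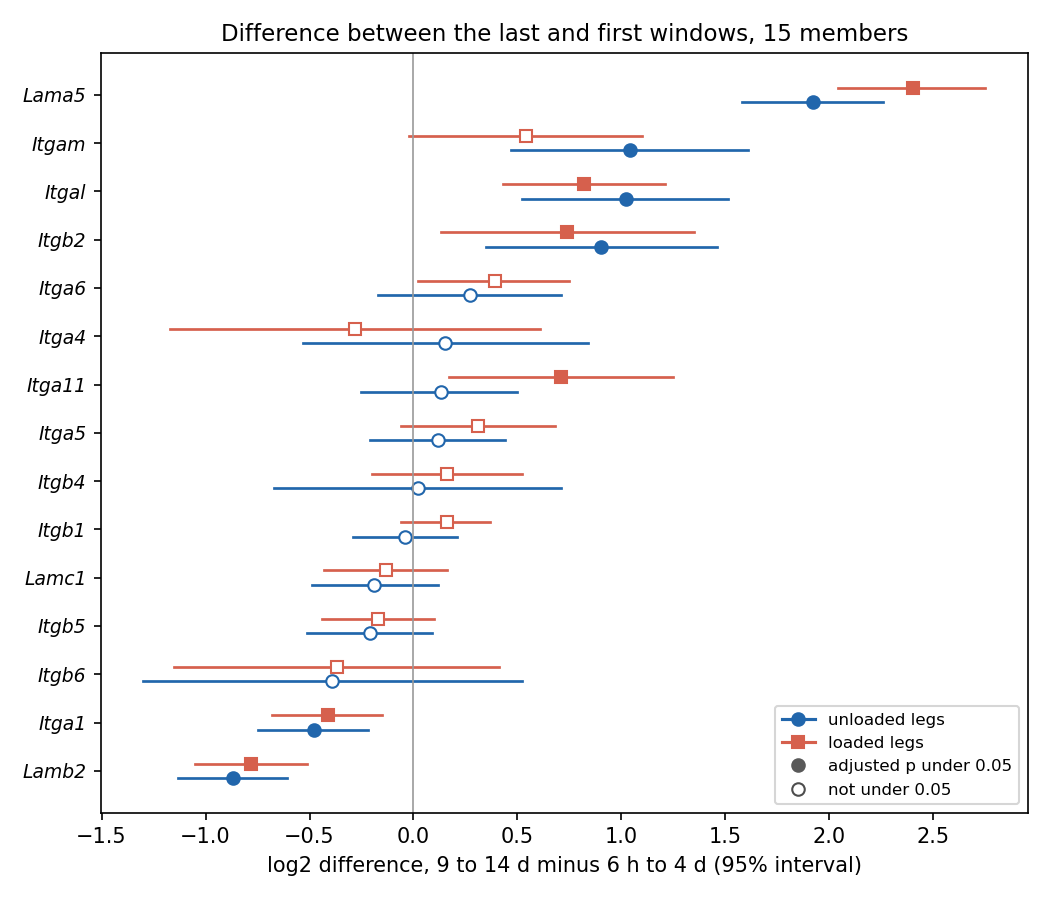
The log2 difference between 9 to 14 d and 6 h to 4 d with its 95% interval, for the 15 tested members in unloaded (blue circles) and loaded (red squares) legs; filled symbols have an adjusted p under 0.05. Lama5 lies farthest to the right in both legs (1.92 and 2.40) and Lamb2 farthest to the left (−0.87 and −0.78).

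Lama5 encodes the laminin alpha5 chain of the laminins of vessels, nerve and developing or synaptic basement membrane. In unloaded legs it lay between 6.76 and 7.58 (median 6.96) at 6 h to 4 d, at 7.89, 9.25, 7.87 and 8.07 in rats 41, 43, 53 and 55 at 5 to 8 d, and between 8.57 and 9.20 (median 9.08) at 9 to 14 d. In loaded legs it lay between 6.77 and 7.36 (median 6.97), then at 7.84, 9.15, 8.19 and 8.37 in the same 4 rats, and then between 8.72 and 10.23 (median 9.36). No leg of the later windows overlapped the first window in either leg. At 5 to 8 d the unloaded leg of rat 43 (9.25) was already above the unloaded legs of the last window. Its loaded leg (9.15) lay within the range of the loaded legs there and under their median of 9.36. The rise reached 1.92 ± 0.17 (SE) in unloaded legs, 3.79-fold (limma adjusted p = 7.80e-09), and 2.40 ± 0.17 in loaded legs, 5.26-fold (adjusted p = 2.16e-09).

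By 5 to 8 d the Lama5 difference was 1.22 ± 0.19 in unloaded (adjusted p = 5.63e-05) and 1.34 ± 0.20 in loaded legs (adjusted p = 4.00e-05, limma). From there to 9 to 14 d it was a further 0.70 ± 0.22 in unloaded legs, which did not pass (adjusted p = 0.110), and 1.06 ± 0.23 in loaded legs (adjusted p = 0.0489). The latter call was lost, with adjusted p up to 0.220 (limma), when any of 18 rats was left out (11, 13, 15, 17, 19, 21, 23, 27, 29, 31, 33, 37, 41, 49, 51, 53, 55 or 57). It was also lost at a difference of 1.03 with the label code as a block (adjusted p = 0.0649, limma) and of 0.90 without rats 49, 51 and 59 (adjusted p = 0.484). With rat 43 left out, the unloaded difference between these windows was 1.03 and passed (adjusted p = 0.00362). Within the third label code alone, the 9 to 14 d rise over the first window was 1.77 ± 0.28 (adjusted p = 0.00583) in unloaded and 2.27 ± 0.34 (adjusted p = 0.0167) in loaded legs, while the 5 to 8 d rise, of 1.35 and 1.27, did not pass there (adjusted p = 0.0998 and 0.277).

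Lamb2 encodes the beta2 chain, which in muscle is concentrated at the neuromuscular junction and also occurs along the fibre and in vessels. It went the other way: unloaded legs lay between 9.29 and 10.25 (median 9.90) at 6 h to 4 d, at 8.41, 8.93, 8.93 and 9.14 in rats 41, 43, 53 and 55, and between 8.81 and 9.15 (median 8.98) at 9 to 14 d. Loaded legs lay between 9.19 and 10.20 (median 9.98), then at 8.64, 8.61, 8.96 and 9.27, and then between 8.82 and 9.25 (median 9.13). The lowest legs of the first window were those of rats 35 and 37, at 9.35 and 9.29 unloaded and 9.37 and 9.19 loaded. The later windows did not overlap the first window in unloaded legs, and did so in loaded legs only through rat 37. The later windows overlapped each other in both legs.

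Lamb2 was lower by 5 to 8 d already, at −1.0 ± 0.14 in unloaded (adjusted p = 2.09e-05) and −1.0 ± 0.15 in loaded legs (adjusted p = 4.26e-05, limma). At 9 to 14 d the difference from the first window was −0.87 ± 0.12 (1.83-fold lower, adjusted p = 8.16e-06) and −0.78 ± 0.13 (1.72-fold lower, adjusted p = 5.40e-05). Within the third label code, which includes rats 35 and 37, it was −0.61 in unloaded and −0.62 in loaded legs at 9 to 14 d and did not pass (limma adjusted p = 0.0675 and 0.101), nor did the −0.94 and −1.03 at 5 to 8 d (adjusted p = 0.0932 and 0.232).

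Lamc1, the gamma1 chain shared by most laminins, stayed between 9.04 and 10.23 over all 46 arrays. Its difference at 9 to 14 d was −0.19 (95% interval −0.49 to 0.12) in unloaded and −0.13 (−0.43 to 0.16) in loaded legs. The other laminin chains read by the array were dim. Lama1, Lama3 and Lamc3 never exceeded the median of their array, with highest values of 5.55, 5.86 and 6.13, and Lamb3 did so on 3 arrays, up to 6.76. A further probe set carries Lamc3 together with a second symbol and was not used. Lama2, the alpha chain of the main fibre laminin, and Lama4 and Lamb1 were not analysed here.

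**Figure D2:**
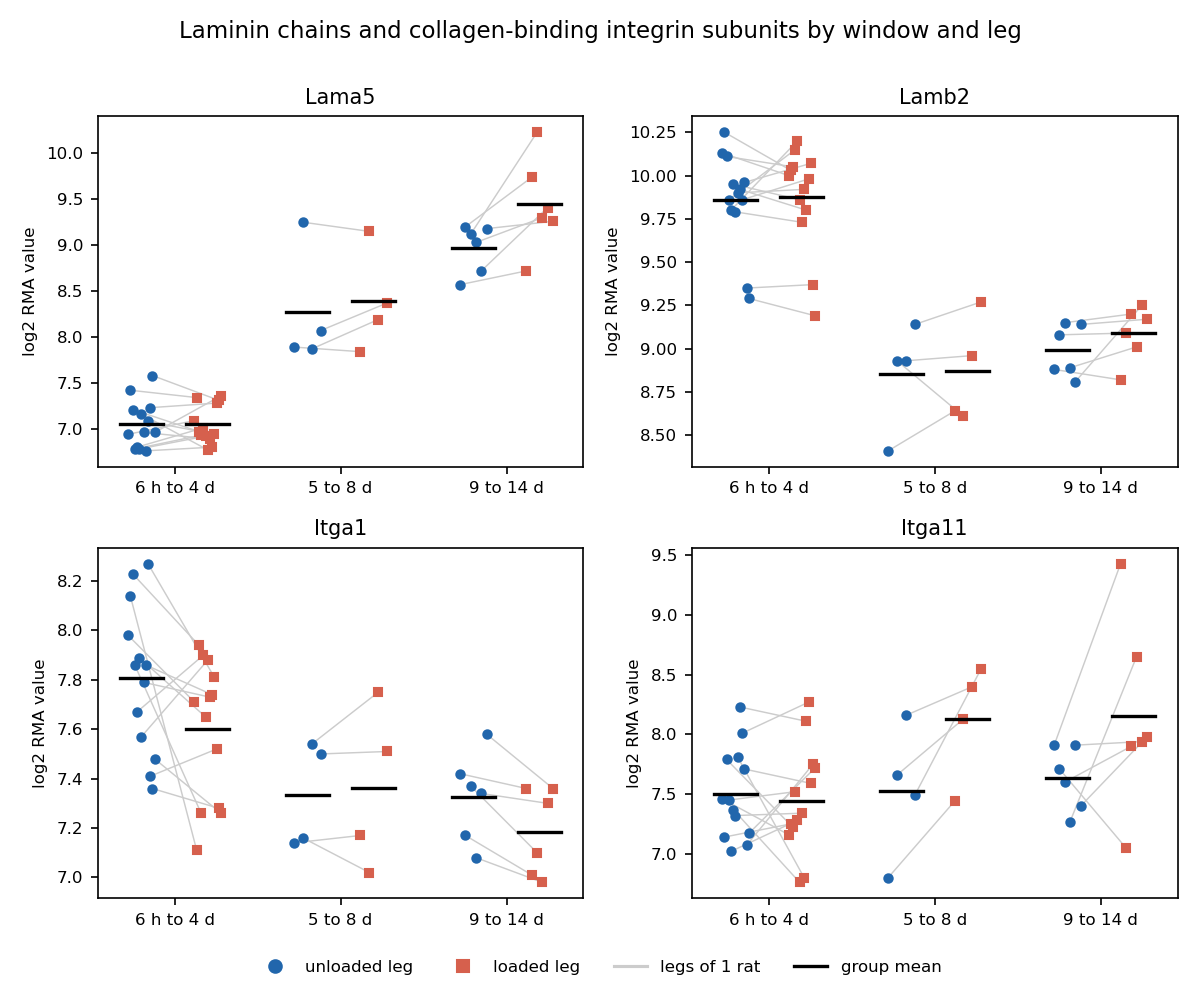
Log2 RMA value on each array for Lama5, Lamb2, Itga1 and Itga11, by window, with unloaded legs as blue circles, loaded legs as red squares, grey lines joining the legs of 1 rat and black bars at group means. Lama5 rises from window to window, Lamb2 drops after 6 h to 4 d, and the loaded Itga11 legs of the last window spread from 7.05 to 9.43.

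Among the collagen receptors, which pair with beta1, Itga1 (alpha1, which prefers the collagens of basement membranes) declined. It lay between 7.36 and 8.27 (median 7.86) in unloaded legs at 6 h to 4 d, at 7.14, 7.16, 7.54 and 7.50 in rats 41, 43, 53 and 55, and between 7.08 and 7.58 (median 7.35) at 9 to 14 d. The loaded legs lay between 7.11 and 7.94 (median 7.71), then at 7.17, 7.02, 7.75 and 7.51, and then between 6.98 and 7.36 (median 7.20). The groups overlapped in both legs. The change from the first to the last window was −0.48 ± 0.13 in unloaded (1.40-fold lower, adjusted p = 0.00402) and −0.41 ± 0.13 in loaded legs (1.33-fold lower, adjusted p = 0.0128, limma).

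At 5 to 8 d Itga1 differed by −0.48 ± 0.15 in unloaded legs (adjusted p = 0.0152), a call lost without rat 41 or rat 43 (adjusted p up to 0.0632), and by −0.24 in loaded legs, which did not pass (adjusted p = 0.221). With the label code as a block in the fit, the 3 Itga1 calls were lost at much the same size: −0.43 at 5 to 8 d (adjusted p = 0.124, limma), −0.40 at 9 to 14 d unloaded (0.0593) and −0.40 loaded (0.0949). In the third code alone they were −0.48, −0.37 and −0.36, with adjusted p of 0.385, 0.255 and 0.196. Without rats 49, 51 and 59 the loaded difference at 9 to 14 d was −0.37 (adjusted p = 0.124).

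Itga11, the alpha11 subunit of fibroblasts, which binds fibrillar collagen, was called only in loaded legs at 9 to 14 d. There it lay between 7.05 and 9.43 (median 7.96), after 7.44, 8.13, 8.40 and 8.55 in rats 41, 43, 53 and 55 and 6.76 to 8.27 (median 7.34) at 6 h to 4 d. Unloaded legs held 7.02 to 8.23 (median 7.45), then 6.80, 7.66, 8.16 and 7.49, and then 7.27 to 7.91 (median 7.65). The high values were the loaded legs of rats 45 (9.43) and 51 (8.65), and the groups overlapped. The loaded difference was 0.71 ± 0.26, 1.64-fold (limma adjusted p = 0.0297), against 0.13 ± 0.18 (adjusted p = 0.585) in unloaded legs.

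That Itga11 call was lost without rat 45 or rat 51 (0.46 at the least, adjusted p up to 0.123, limma), with the label code as a block (0.28, adjusted p = 0.627) and within the third code (0.42, adjusted p = 0.586). It was also lost with cyclic loess between arrays (0.62, adjusted p = 0.0525), without rats 49, 51 and 59 (0.69, adjusted p = 0.155) and without rats 21 and 51 (0.56, adjusted p = 0.118). Of 9 fibroblast markers tested, 0 were higher at 9 to 14 d in loaded legs, and their mean level ran from 8.02 to 9.75 (median 8.70) there and from 8.15 to 9.31 (median 8.78) at 6 h to 4 d. Between legs at 9 to 14 d, 1 of the 9, Pi16, was higher in the loaded leg (1.07, adjusted p = 0.0258, 6 of 6 rats, limma). The part of fibroblasts in the Itga11 values was not tested. The other collagen receptor subunits, Itga2 (alpha2) and Itga10 (alpha10), each passed their array median on 1 array, with highest values of 6.40 and 6.25.

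Itga5, the alpha5 subunit of the fibronectin receptor, was higher at 5 to 8 d in unloaded legs, at 8.75, 8.23, 8.68 and 8.40 in rats 41, 43, 53 and 55 against 7.66 to 8.72 (median 7.99) before. At 9 to 14 d it lay between 7.66 and 8.72 (median 8.18). The difference from 5 to 8 d, −0.35, did not pass (limma adjusted p = 0.418). Loaded legs held 7.84 to 8.31 (median 8.07), then 8.71, 7.71, 8.80 and 8.63, and then 7.23 to 8.83 (median 8.71). Rats 43 and 47 had the lowest loaded legs, at 7.71 and 7.23. The 5 to 8 d difference was 0.47 ± 0.18 (1.39-fold, limma adjusted p = 0.0462) in unloaded legs. It fell short of the threshold in loaded legs (0.39, adjusted p = 0.144), with the label code as a block (0.49, adjusted p = 0.122), within the third code (0.64, adjusted p = 0.241), with cyclic loess (0.34, adjusted p = 0.166), with no filter on dim probe sets (adjusted p = 0.0614) and without rats 35 and 37 (0.42, adjusted p = 0.0701). It also did so, with adjusted p up to 0.148, when any of 15 rats was left out (11, 17, 19, 21, 23, 27, 29, 31, 33, 35, 37, 41, 47, 53 or 55).

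Itgb1, the beta1 chain that partners the collagen, fibronectin and laminin receptor alphas, was steady, between 10.35 and 11.27 over the 46 arrays. It differed at 9 to 14 d by −0.04 (95% interval −0.29 to 0.21) in unloaded and 0.16 (−0.06 to 0.37) in loaded legs. Itga6, the laminin-binding alpha6 subunit, ranged from 5.88 to 7.65, and its difference at 9 to 14 d was 0.27 (adjusted p = 0.313) in unloaded and 0.39 (adjusted p = 0.0774, limma) in loaded legs. Itga4, the alpha4 subunit that binds Vcam1 and fibronectin, spread widely within groups, from 4.76 to 8.05, with 26 of 46 arrays above their median. Its 5 to 8 d difference in loaded legs was −1.20 ± 0.50 (adjusted p = 0.0595, limma).

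Of the beta chains that pair with alphav, Itgb5 (beta5) stayed between 8.00 and 9.20, and its differences at 9 to 14 d were −0.21 (adjusted p = 0.241) and −0.17 (adjusted p = 0.297, limma). Itgb6 (beta6), an activator of latent TGF-beta best known from epithelia, ranged from 7.50 to 11.14. Its lowest unloaded legs at 6 h to 4 d were rats 35 (7.50) and 37 (8.17), which were also the lowest of that group in Myh2 and Myh7. The lowest loaded leg was that of rat 47 (7.71), where the mean fibre marker level was 11.91. Other legs low in fibre markers were not low in Itgb6. The unloaded leg of rat 51, with a marker mean of 11.90, read 9.01, near its group median of 9.34. The loaded legs of rats 17 and 33, with Myh7 at 8.51 and 6.64, read 10.73 and 10.20, where the group median was 10.38. The part of fibre type in the Itgb6 values was not tested. The differences of Itgb6 at 9 to 14 d were −0.39 (95% interval −1.30 to 0.52) and −0.37 (−1.15 to 0.41). Itgb8 (beta8) never exceeded an array median, with a highest value of 5.10.

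Itgb4, the beta4 chain that pairs with alpha6 on epithelia and on myelinating Schwann cells, had a few high legs rather than a shift with time. Its median lay between 7.44 and 7.80 in all 6 groups, but the unloaded legs of rats 51 (9.82), 21 (9.55), 35 (9.17) and 13 (8.68) rose above all others. The mean of 8 Schwann cell markers was 7.49, 7.65, 7.16 and 7.25 in those legs, against group medians between 6.73 and 6.99, but the list split. Pmp22, S100b and Prx were above their 46-array medians in all 4 legs. Pmp22, a myelin protein, read 11.25, 12.00, 11.08 and 11.32 with a median of 9.83. Periaxin (Prx), a protein of myelin-forming Schwann cells, read 7.02, 7.74, 6.85 and 6.54 in those 4 legs with a median of 6.17 over the 46 arrays. The glial protein S100b read 8.08, 8.02, 7.22 and 6.84 with a median of 6.04. In the leg with the next highest Itgb4, unloaded rat 43 (8.55), Pmp22 read 10.25, and Prx (6.08) and S100b (5.99) were below their medians. Unloaded rat 33 read 7.16 in S100b and 7.74 in Itgb4. The transcription factor Sox10 (6.31 and 6.17) and the receptor Ngfr (5.55 and 5.38) were below their medians of 6.41 and 5.89 in rats 51 and 35. Each of Mbp (6.51 in rat 21, median 6.63), Cnp (7.48 in rat 21 and 6.84 in rat 13, median 7.65) and Erbb3 (5.92 in rat 35, median 6.09) was below its median in at least 1 of the 4 legs. The summed signal of the list ran from 1245 to 5109 in unloaded and from 1346 to 2496 in loaded legs at 6 h to 4 d. At 9 to 14 d it ran from 1335 to 3594 and from 1499 to 3565. Marker means were also high in the loaded legs of rats 51 (7.34) and 49 (7.19), where Itgb4 read 7.96 and 7.42. The part of these cells in the Itgb4 values was not tested.

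**Figure D3:**
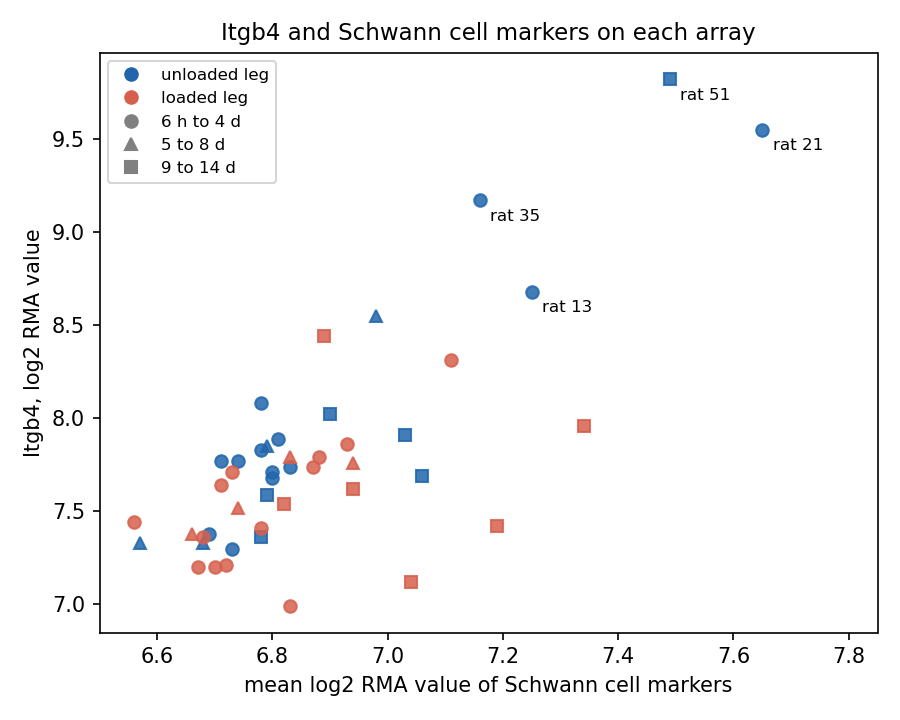
Itgb4 against the mean of 8 Schwann cell markers on each of the 46 arrays (log2 RMA values), with unloaded legs in blue, loaded legs in red and the window as the symbol's shape. The 4 labelled unloaded legs, of rats 13, 21, 35 and 51, have the highest Itgb4 values and marker means from 7.16 to 7.65.

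The leukocyte integrins share the beta2 chain Itgb2, which pairs with alphaL (Itgal, LFA-1, on all leukocytes) and alphaM (Itgam, Mac-1, on macrophages and neutrophils). In unloaded legs Itgb2 lay between 6.35 and 7.31 (median 6.97) at 6 h to 4 d, at 6.90, 7.18, 6.67 and 6.47 in rats 41, 43, 53 and 55, and between 6.86 and 9.31 (median 7.46) at 9 to 14 d. Loaded legs held 6.36 to 7.39 (median 6.84), then 7.44, 6.32, 6.59 and 6.55, and then 6.40 to 9.28 (median 7.37). The late rise was carried by rats 49 (9.31 unloaded, 9.28 loaded) and 51 (7.73 and 8.67) and, in the unloaded leg alone, by rat 59 (8.96, with 7.23 loaded). The other 3 rats of the last window stayed between 6.40 and 7.50.

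Itgal showed the same pattern at a lower level. Unloaded legs lay between 5.82 and 6.54 (median 6.02), then at 5.96, 6.55, 6.43 and 6.02 in rats 41, 43, 53 and 55, and then between 6.16 and 8.89 (median 6.91), led by rat 49. Loaded legs lay between 5.52 and 6.35 (median 6.06), then at 6.22, 6.26, 6.26 and 5.90, and then between 6.04 and 7.83 (median 6.55), led by rats 49 (7.83) and 51 (7.66). At 6 h to 4 d it exceeded the array median on 4 of 13 unloaded and 2 of 13 loaded legs. The loaded mean there was 6.03, under the lowest array median of 6.07, so a fold change is given for unloaded legs alone.

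Itgam lay below the array median on most legs before 9 d, and its group means there were under 6.07, the lowest array median. Unloaded legs held 4.99 to 6.31 (median 5.69), then 6.32, 5.42, 5.49 and 5.14 in rats 41, 43, 53 and 55, and then 5.57 to 7.94 (median 6.46), with rats 49 (7.94) and 59 (7.86) highest. Loaded legs held 4.62 to 6.30 (median 5.58), then 6.19, 5.56, 5.38 and 4.97, and then 5.10 to 7.21 (median 6.06), with rats 49 (7.18) and 51 (7.21) highest. In rat 59 the unloaded leg was high and the loaded leg, at 5.93, was not.

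All 3 were called in unloaded legs at 9 to 14 d against 6 h to 4 d: Itgal by 1.02 ± 0.24, 2.02-fold (adjusted p = 0.00163), Itgam by 1.04 ± 0.28 (adjusted p = 0.00400) and Itgb2 by 0.90 ± 0.27, 1.87-fold (adjusted p = 0.00904, limma). In loaded legs Itgal was called at 0.82 ± 0.19 (adjusted p = 0.00124) and Itgb2 at 0.74 ± 0.30, 1.67-fold (adjusted p = 0.0466), and Itgam, at 0.54 ± 0.27, was not (adjusted p = 0.107). Groups overlapped in each case. Rats 49, 51 and 59 were left out together after their high macrophage markers had been seen, a choice that in part lowers these differences by itself. Without them the unloaded differences were 0.40 for Itgal (adjusted p = 0.0578), 0.24 for Itgam (0.449) and 0.07 for Itgb2 (0.773, limma). The loaded differences were then 0.49 for Itgal, still called (adjusted p = 0.00678), and −0.03 for Itgb2 (adjusted p = 0.947).

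The loaded Itgb2 call was also lost, with adjusted p up to 0.210 (limma), when any of 14 rats was left out (11, 15, 17, 23, 29, 31, 33, 35, 37, 49, 51, 53, 55 or 57), without rats 35 and 37 (0.68, adjusted p = 0.0764) and without rats 21 and 51 (0.56, adjusted p = 0.152). Array quality weights (0.51, adjusted p = 0.107), cyclic loess (0.67, adjusted p = 0.0717), no filter on dim probe sets (adjusted p = 0.0588) and a fit of only these windows (adjusted p = 0.0546) ended it too. With the label code as a block the Itgb2 differences were 1.09 and 1.12 and did not pass (adjusted p = 0.0534 and 0.0723), while Itgal (1.16 and 1.06) and unloaded Itgam (1.27) did (0.0222, 0.00610 and 0.0292). Within the third code none of the 3 was called: Itgal differed by 1.25 and 1.15 (adjusted p = 0.104 and 0.0685), Itgb2 by 0.97 and 1.13 (0.209 and 0.282) and unloaded Itgam by 1.12 (0.148).

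Macrophage markers were high in both legs of rats 49 and 51 and in the unloaded leg of rat 59. The mean of 12 markers (Cd68, Csf1r, C1qa and others) was 9.77, 8.61 and 9.36 in the unloaded legs of rats 49, 51 and 59 and between 7.49 and 8.14 in the other 3 rats of that window. In loaded legs it was 9.34, 9.10 and 8.40, beside 7.24 to 8.37. The 8.40 of rat 59 was under the 8.43 of the loaded leg of rat 19 at 6 h to 4 d. Of the 12, 6 were higher at 9 to 14 d in unloaded and 5 in loaded legs, and 0 were lower. Of all genes, 45.6% and 44.2% were called there. The median difference of the 12 markers was 0.67 and 0.55. Their summed signal ran from 2863 to 15630 and from 2368 to 10863 at 9 to 14 d, and from 2410 to 5337 and from 2484 to 6143 at 6 h to 4 d.

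Of 7 neutrophil markers, S100a8, Camp, Cxcr2 and Ngp never exceeded an array median, and 1 of the 3 tested, Csf3r, was higher in each leg (0.64, adjusted p = 0.0304, and 0.38, adjusted p = 0.0430, limma). Of 11 lymphocyte markers with a probe set, 6 never exceeded a median, Cd3e, Cd3d and Cd3g among them, and 2 of the 3 tested were higher in each leg, Nkg7 and Cd4. The part of these cells in the integrin differences was not tested. The other leukocyte subunits among the 24 members were dim. Itgad (alphaD) never exceeded an array median, up to 5.67. Itgb7 (beta7) did so on 1 array, the unloaded leg of rat 49 (6.56). Itgax (alphaX) and Itgae (alphaE) are not among the members and were not analysed here.

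**Figure D4:**
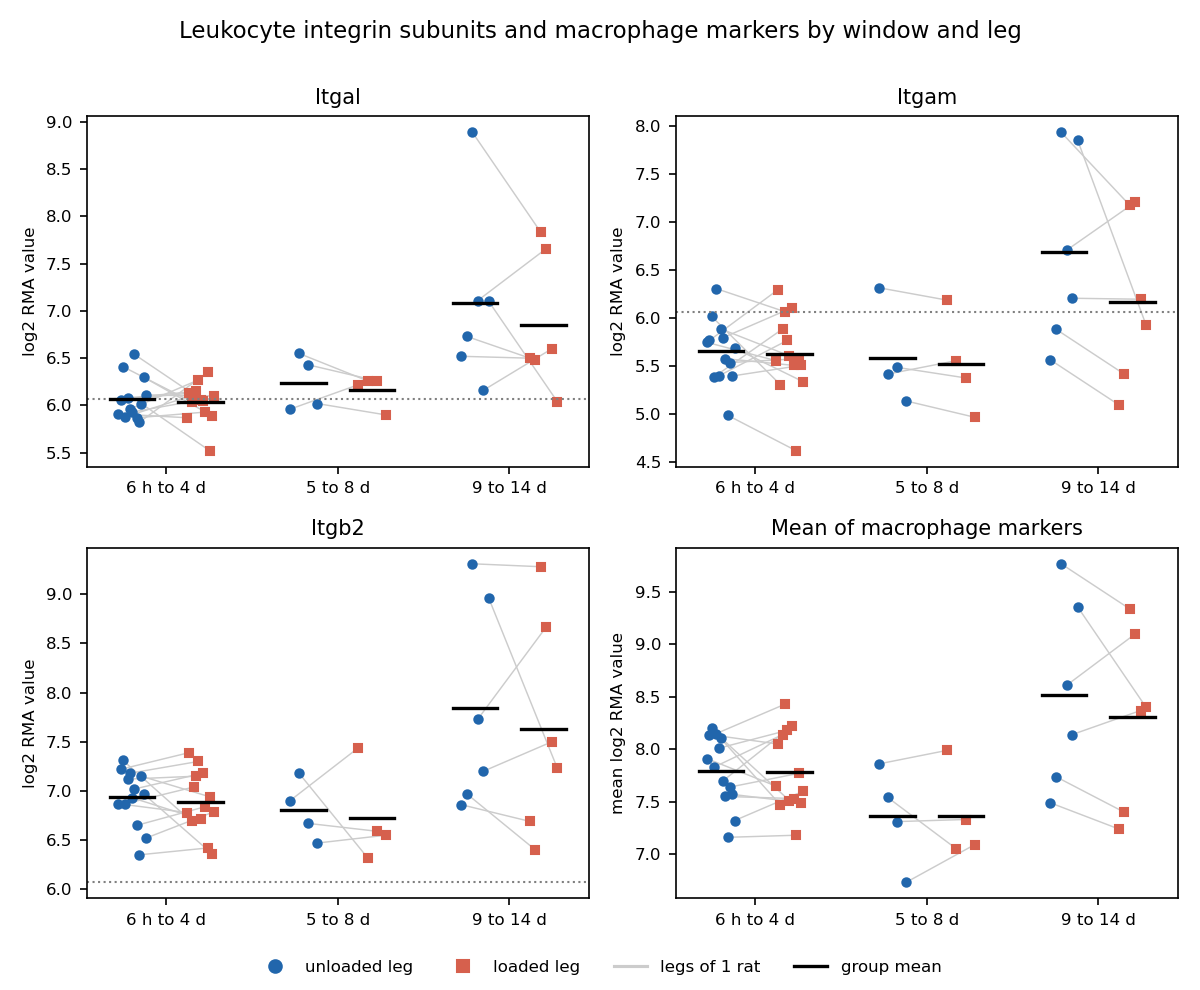
Log2 RMA value on each array for Itgal, Itgam and Itgb2, and the mean of the 12 macrophage markers, by window and leg (blue circles unloaded, red squares loaded, grey lines joining legs of 1 rat, black bars group means). The dotted line is the lowest array median (6.07), and in the last window 3 unloaded and 2 loaded legs stand above the rest on Itgb2.

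Loading was compared between the legs of each rat, with the rat as a block. No member passed over all 23 rats, where 2.90% of all genes were called, nor at 9 to 14 d, where 0.269% were. At 6 h to 4 d, at 5 to 8 d and in the 3 tests of whether the leg difference changed between windows, 0% of all genes were called. By unadjusted p under 0.05 (limma), 4 of 15 members differed over all rats, where 18.6% of all genes did. At 6 h to 4 d 2 did (11.6% of all genes), at 5 to 8 d 2 (6.93%) and at 9 to 14 d 3 (13.0%). In the tests of change 1, 3 and 0 did, where 6.00%, 7.72% and 2.67% of all genes did. The members' median leg difference was −0.02 over all rats, beside −0.01 over all genes.

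Lamc1 came nearest over all rats. The loaded leg was higher by 0.15 (SE 0.04, 95% interval 0.06 to 0.25) and in 15 of 23 rats, with an adjusted p of 0.0566 (limma). By window the difference was 0.11 in 7 of 13 rats, 0.31 in 4 of 4 and 0.16 in 4 of 6. Leaving out rat 15 or rat 21 brought it under the threshold, with adjusted p between 0.0269 and 0.106 over all rats left out in turn. With the legs unpaired, it had the same size and an adjusted p of 0.826.

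Lama5 was higher in the loaded leg of all 6 rats at 9 to 14 d, by 0.14, 0.54, 1.11, 0.27, 0.69 and 0.08 in rats 45, 47, 49, 51, 57 and 59. The mean was 0.47 (SE 0.11, 95% interval 0.25 to 0.70), with an adjusted p of 0.0600 (limma). It came under the threshold without rat 43 or rat 59 and ranged from 0.0442 to 0.355 as each rat was left out. In the other windows the legs differed by −0.01 (higher in 7 of 13 rats) and 0.12 (2 of 4). The gap between the last and first windows was 0.48 (95% interval 0.20 to 0.75, adjusted p = 0.388).

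**Figure D5:**
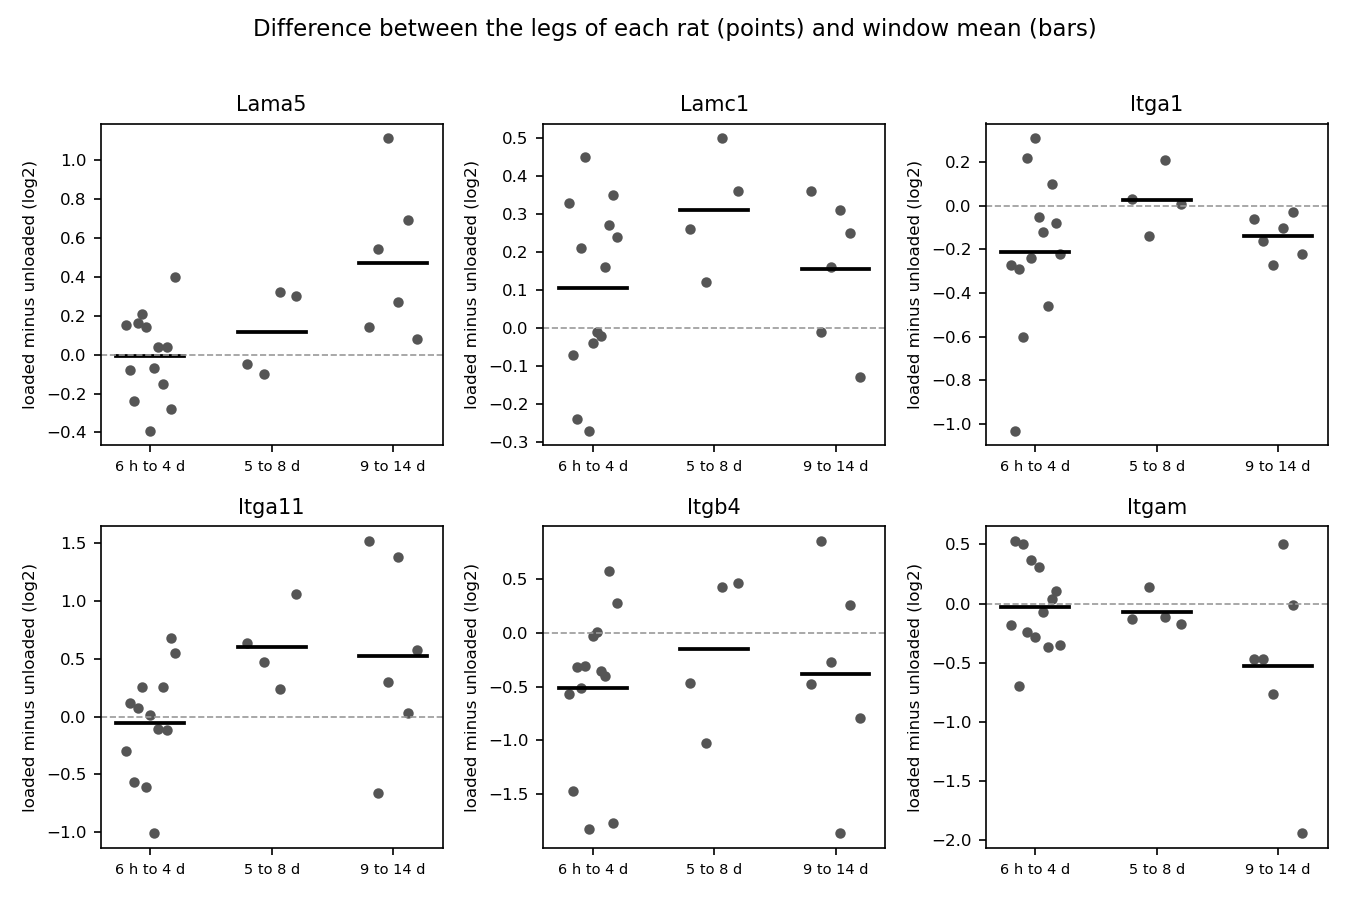
Loaded minus unloaded log2 difference of each rat (points) and the mean of each window (bars) for Lama5, Lamc1, Itga1, Itga11, Itgb4 and Itgam; the dashed line is 0. All 6 Lama5 points of the last window are above 0, all 6 Itga1 points there are below it, and 4 Itgb4 points lie at −1.47 or below.

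Itga1 was lower in the loaded leg of 17 of 23 rats, by 0.15 in the mean (log2 −0.15, 95% interval −0.27 to −0.03, adjusted p = 0.151), including 10 of 13 at 6 h to 4 d and 6 of 6 at 9 to 14 d. At 5 to 8 d it was higher in 3 of 4 rats, with a mean of 0.03. Itgb4 was lower in 16 of 23, with a mean of −0.42 (−0.73 to −0.11, adjusted p = 0.127, limma). The rats with the largest gaps, 51 (−1.86), 21 (−1.82), 35 (−1.76) and 13 (−1.47), are those with the highest unloaded Itgb4 legs. Rat 43 was next, at −1.02. Without rats 21 and 51 the mean was −0.28 (adjusted p = 0.249). Itga11 was higher in the loaded leg in 4 of 4 rats at 5 to 8 d (mean 0.60, adjusted p = 0.649) and in 5 of 6 at 9 to 14 d (0.53, adjusted p = 0.30), with means there from 0.33 to 0.76 as each rat was left out. Itgam was lower in 5 of 6 at 9 to 14 d (−0.53, adjusted p = 0.249), led by rat 59 (−1.94), and the mean was −0.24 without that rat (limma).

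Genes that work with the members were called in part, and the counts of each list stand beside the share of all genes. At 9 to 14 d against 6 h to 4 d, 45.6% of all genes were called in unloaded legs and 44.2% in loaded legs. The split of these shares into higher and lower is given above. From each list the called genes with the smallest p in a leg are named, and a gene named for 1 leg may also be called in the other. Of 10 tested partners in the basement membrane, 0 were higher and 4 lower at 9 to 14 d in unloaded legs (median −0.24), and 0 and 3 in loaded legs (median −0.21). They were the matrix glycoprotein Sparc (−1.14, adjusted p = 0.00250 unloaded, −0.96, 0.0207 loaded, limma), the collagen IV chain Col4a3 (−0.37 and −0.28), Tinagl1 (−0.71 and −0.77) and, in unloaded legs, Col4a4 (−0.28, adjusted p = 0.00337). Over all rats the loaded leg was higher in Smoc2, a secreted relative of Sparc (0.34, adjusted p = 0.0136, 19 of 23 rats).

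Of 11 tested genes of the dystroglycan complex and other laminin receptors, 3 were higher and 2 lower in each leg. This count was near the share of all genes called (45.6% and 44.2%). Rpsa, a laminin-binding protein that is also part of the ribosome, was higher by 0.74 and 0.67 (adjusted p = 3.30e-09 and 1.64e-07), and Pomt1, which starts the sugar chain on dystroglycan, by 0.68 and 0.66 (adjusted p = 1.34e-05 and 1.32e-04). In loaded legs Pomgnt1, of the same sugar pathway, was higher by 0.83 (adjusted p = 1.51e-04). The sarcoglycans Sgca, in unloaded legs (−0.44, adjusted p = 7.02e-05), and Sgcd, in both (−0.66 and −0.66, adjusted p = 0.00592 and 0.00252, limma), were lower. Between legs, Utrn (utrophin) was lower in the loaded leg (−0.21, adjusted p = 0.0313, 20 of 23 rats) and Sgca higher (0.16, adjusted p = 0.0389, 17 of 23).

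Of 22 tested adaptors of integrins and focal adhesions, 5 were higher and 6 lower in unloaded legs and 6 and 5 in loaded legs. This was near the share of all genes called (45.6% and 44.2%), and 0 differed between legs (adjusted p, limma). Itgb1bp1, which binds the beta1 tail, was higher by 0.87 and 0.82, and the kinase Ilk by 0.57 and 0.58. Paxillin (Pxn) was lower by −0.75 and −0.66 and caveolin 3 (Cav3), the muscle caveolin, by −1.61 and −1.45. The largest adjusted p among these 8 values was 3.27e-04.

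Of 16 tested integrin ligands other than laminins, 2 were higher and 4 lower in unloaded and 3 and 3 in loaded legs. Ltbp1, which tethers latent TGF-beta, was higher by 1.75 (3.36-fold, adjusted p = 0.00130) and 1.99 (3.98-fold, adjusted p = 4.55e-05), and Vcam1, the ligand of alpha4, by 0.86 and 0.69 (it is also in the lists of leukocyte integrin partners and satellite cells). Mfge8, which bridges dying cells to phagocytes, was higher in loaded legs (0.55, adjusted p = 0.00437). Vitronectin (Vtn) was lower by −0.53 and −0.50, and the collagen I chain Col1a1 in unloaded legs by −1.80 (3.47-fold, adjusted p = 0.00695, limma). Fibrillin 1 (Fbn1) was higher in the loaded leg over all rats (0.43, adjusted p = 0.0306, 20 of 23) and at 9 to 14 d (0.94, adjusted p = 0.0465, 6 of 6).

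Of 9 tested partners of leukocyte integrins, 7 were higher in unloaded and 4 in loaded legs, and 0 lower. They included the leukocyte phosphatase Ptprc (1.22 and 0.80, adjusted p = 0.00227 and 0.0365), the actin regulator Coro1a (0.57 and 0.64), the signalling adaptor Tyrobp in unloaded legs (1.11, adjusted p = 0.00942) and talin 1 (Tln1) in loaded legs (0.49, adjusted p = 0.00171, limma). Rats 49 and 51, and rat 59 in its unloaded leg, hold the high macrophage marker levels given above.

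Markers of cells that carry these molecules were called as follows at 9 to 14 d against 6 h to 4 d, in unloaded and loaded legs (limma). Of all genes, 45.6% and 44.2% were called there. Endothelial markers were lower in 4 and 3 of 8 tested, Cdh5 (−0.34 and −0.36), Cldn5 (−0.36 and −0.34) and Robo4 among them, and smooth muscle and pericyte markers in 4 and 3 of 9, led by Cspg4 (−0.72 and −0.62). None of these 17 was higher. Fibre markers were lower in 6 and 5 of 9, with the smallest p for the phosphorylase Pygm (−0.53 and −0.54), and 0 were higher. The slow myosin Myh7 differed by −2.76 in unloaded legs. Satellite cell markers were higher in 4 and 3 of 6 tested and lower in 2 and 2, with Myf5 up by 2.21 and 2.44 and Cdh15 lower by −0.63 and −0.64. Schwann cell markers were higher in 2 and 2 of 8, Cnp in both legs (1.25 and 1.63). Fibroblast markers were lower in 1 and 0 of 9 (Pi16, −1.48) and adipocyte markers lower in 1 and 1 of 7. Of 3 platelet markers, 2 were lower in unloaded legs, and 1 was higher in loaded legs. Between legs, the fibroblast markers Mfap5 (0.38, adjusted p = 0.0240) and Pi16 (0.40, adjusted p = 0.0399) were higher in the loaded leg over all rats, and Pi16 at 9 to 14 d (1.07, adjusted p = 0.0258, 6 of 6 rats). The part of these cells in the members' differences was not tested.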

How the data were processed

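RNA from both legs of 23 rats was read on 46 Affymetrix arrays. The deposited values are log2 signals made by the authors with RMA, per the submitters' processing notes. The RMA version, background model and detection calls are not given in the sources used here, so a level near the array median is not shown to be above background. Quantile normalisation within RMA gives all arrays nearly the same median.

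Genes were named through the platform annotation. All 24 members matched RefSeq by gene ID. A probe set had to exceed the median of its own array on at least 4 arrays, and the one with the highest mean over all arrays stood for its gene (9289 genes). No fold change is given where a group mean was below the lowest array median (6.07). Windows were compared within each leg (lmFit and eBayes of limma 3.58.1 in R 4.3.3, with 1 fit per leg). Legs were compared in 1 fit of all arrays with rat as a block, over all rats as the mean of the window effects weighted by rats. P-values are two-sided with Benjamini-Hochberg adjustment over 9289 genes and a threshold of 0.05. The scripts were tested on simulated data.

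The labels do not state the pairing. It was inferred from consecutive leg numbers of the same window and code, and the deviations of both legs correlated above 0.1 in 21 of 23 rats. Members and gene lists were chosen with earlier results of these data known. The text names every member, values by group for members called in any comparison, and from each list up to 4 called genes with the smallest p. Rats left out together as 49, 51 and 59, or as 21 and 51, were chosen after seeing their marker levels.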

Additional observations from a re-analysis of the deposited data

Results flagged for a closer look

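In 60 groups of 4 or 6 legs (15 members, 4 groups each), 5 values stood apart from the rest of their group by more than the 95% limit of Dixon's test, where chance gives about 1 in 20 groups. Lama5 read 9.25 in the unloaded leg of rat 43 at 5 to 8 d, and the nearest other leg read 8.07. Itgb4 read 9.82 in the unloaded leg of rat 51 at 9 to 14 d, against 8.02. Itgal read 8.89 in the unloaded leg of rat 49 at 9 to 14 d, against 7.11. In loaded legs at 5 to 8 d, Itga5 read 7.71 in rat 43, against 8.63, and Itgal read 5.90 in rat 55, against 6.22.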

How the results depend on the processing

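All 19 member calls were kept with the median of a gene's probe sets. Each member is read by 1 probe set, so this setting could not change its values. Of the 19, a filter on the mean kept 18 of the 18 that remained (Itgam did not pass it). Array quality weights kept 18. The fits without rats 35 and 37 and with only the windows compared kept 17 each. Cyclic loess, no filter on dim probe sets and the fit without rats 21 and 51 kept 16 each. Without rats 49, 51 and 59, 12 were kept. With the label code as a block 11 were kept, and in the third code alone, where fewer arrays enter, 2. The calls of Lama5 and Lamb2 against 6 h to 4 d held under all of the other settings, and with each rat left out, but for the third code alone. There Lama5 held at 9 to 14 d. The count of members called, 4 at 5 to 8 d unloaded, became 2 with the code as a block and 0 in the third code, and ran from 2 to 4 with each rat left out. The 6 at 9 to 14 d became 1 in the third code in either leg. In loaded legs the 6 became 3 with the code as a block, 3 without rats 49, 51 and 59, and 10 of 24 (3 higher, 7 lower) with no filter, where dim members enter. The 2 at 5 to 8 d loaded became 7 with array weights, 5 with only the windows compared and 0 in the third code, and ran from 2 to 5 with each rat left out. The 1 of the last against the middle window loaded became 0 with no filter, the code as a block, the third code, only the windows compared, without rats 49, 51 and 59 and without rats 21 and 51, and ran from 0 to 1 with each rat left out; unloaded, the 0 became 5 with array weights and ran from 0 to 1. Between legs, the 0 over all rats became 1 (Lamc1) with array weights, without rats 21 and 27 and without rats 21 and 51, and array weights gave 1 at 5 to 8 d (Lamc1), 1 at 9 to 14 d (Lama5) and 1 for the change from 6 h to 4 d to 5 to 8 d; with each rat left out the counts over all rats and at 9 to 14 d ran from 0 to 1. The rat block pairs the legs: with no block, 0 members were called in any leg comparison. Signs turned for Itga11 in loaded legs at 5 to 8 d (0.68, not called, became −0.05 in the third code) and for Itgb2 in loaded legs at 9 to 14 d (−0.03 without rats 49, 51 and 59). The cause of these changes was not tested. The windows of 4 and 6 rats limit the precision, and dim members such as Itgam and Itgal lie near the array median.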
